A study of Mus musculus with 12 samples.

Results

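The genes described here were the Hox genes of the 4 mouse Hox clusters, HoxA to HoxD. Members were taken as the gene models of the deposited transcript assembly that matched an annotated gene whose symbol was Hox followed by the cluster letter and a paralog number. The 38 members fell into 33 counted loci of the 80012 loci in the assembly, with 10 genes in 8 loci for HoxA, 10 genes in 10 loci for HoxB, 9 genes in 8 loci for HoxC and 9 genes in 7 loci for HoxD. The transcripts were read in mouse embryonic stem cells (ESCs) of an Eomes-EGFP reporter line on a C57BL/6 background, in which EGFP placed at the Eomes start site reports the T-box factor Eomes. Undifferentiated ESCs were taken at day 0 from culture on mouse embryonic fibroblast feeders. The same line was differentiated in hanging drops, and the embryoid bodies were dissociated at day 3 and sorted by EGFP into Eomes-negative (Eo-) and Eomes-positive (Eo+) cells. All groups carried the reporter allele, and all libraries came from this 1 line. Both comparisons with ESCs use the same 4 ESC libraries. Each group had 4 libraries, numbered 1, 2, 5 and 6, from 4 differentiation sets, and each library held between 648413022 and 837308168 read counts over all loci.

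Hox genes encode homeodomain transcription factors that lie in 4 clusters, and their order along a cluster matches the order in which they are switched on along the head to tail axis of the embryo. Genes with low paralog numbers lie at the 3' end of a cluster and come on first, in the posterior part of the gastrulating embryo and later in the hindbrain, and genes with high numbers come on later in trunk, limb and tail. In pluripotent cells the clusters are covered by the Polycomb mark on histone H3, and retinoic acid, Wnt and Fgf signals, Cdx factors and the TALE homeodomain cofactors Pbx, Meis and Pknox take part in their activation and use.

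Many of the counted loci were not single genes. Hoxa2 with Hoxa3, Hoxa5 with Hoxa6, Hoxc5 with Hoxc10, Hoxd3 with Hoxd4, and Hoxd10 with Hoxd11 each shared 1 locus, so their counts could not be separated. The Hoxb9 locus also held Gm53 and the microRNA gene Mir196a-1, and only 22% of its 11711 exon bases lay in annotated Hoxb9 exons. The share was 29.2% of 3534 exon bases for Hoxc12, 53.3% for the Hoxb6 locus, which also held Gm11539, 55.7% for Hoxb4, 61.5% for Hoxa13, 64.2% for Hoxb3, 69.5% for Hoxb2 and 70.1% for the Hoxd9 locus, which also held Gm14396. The Hoxa2/Hoxa3, Hoxd3/Hoxd4 and Hoxd10/Hoxd11 loci each held 1 further annotated gene model. No exon base of a Hox locus was shared with another locus on the same strand, and counting used the strand. Of the 33 loci, 28 passed a mean over 0.1 FPKM (counts scaled by library total and by kilobases of exon, here with no other scaling) in at least 1 group and were tested, as were 17922 loci in all. The other 5 were Hoxa9, Hoxc9, Hoxc11, Hoxd10/Hoxd11 and Hoxd12.

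The promoters of 4 members are shown because these loci changed furthest in Eo+ cells among those with a single RefSeq entry, the first pair upward and the second pair downward. RefSeq entries (build GRCm38.p6, 250 bases before to 50 bases after the start) were matched for 22 of the 38 genes, and Hoxb2, Hoxb3, Hoxb9, Hoxb13, Hoxc12 and Hoxc13 had none. The Hoxa7 and Hoxc4 windows lie inside the counted loci (chr6:52214491-52221854 and chr15:103018934-103036852) and not at the start of the locus. Capitals mark the letters of 6 motifs that were searched on both strands.
Hoxb1, chr11:96365508-96365807, plus strand: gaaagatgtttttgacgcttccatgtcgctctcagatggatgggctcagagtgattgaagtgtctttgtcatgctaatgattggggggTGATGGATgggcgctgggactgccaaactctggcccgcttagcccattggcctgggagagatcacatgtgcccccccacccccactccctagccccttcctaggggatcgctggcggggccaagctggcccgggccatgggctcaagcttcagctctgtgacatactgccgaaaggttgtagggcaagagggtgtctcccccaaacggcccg
Hoxd1, chr2:74762730-74763029, plus strand: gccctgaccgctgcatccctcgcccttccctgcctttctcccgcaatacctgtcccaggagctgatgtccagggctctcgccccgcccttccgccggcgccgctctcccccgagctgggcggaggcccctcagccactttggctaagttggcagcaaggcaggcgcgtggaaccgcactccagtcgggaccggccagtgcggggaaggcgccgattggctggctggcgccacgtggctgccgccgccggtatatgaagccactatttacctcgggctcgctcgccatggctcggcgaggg
Hoxa7, chr6:52218524-52218823, minus strand: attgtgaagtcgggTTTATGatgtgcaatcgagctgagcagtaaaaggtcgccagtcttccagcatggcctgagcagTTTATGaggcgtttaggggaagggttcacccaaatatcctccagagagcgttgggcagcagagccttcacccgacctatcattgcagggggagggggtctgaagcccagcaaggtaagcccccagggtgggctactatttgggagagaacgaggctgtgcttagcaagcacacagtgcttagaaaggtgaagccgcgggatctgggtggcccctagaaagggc
Hoxc4, chr15:103034145-103034444, plus strand: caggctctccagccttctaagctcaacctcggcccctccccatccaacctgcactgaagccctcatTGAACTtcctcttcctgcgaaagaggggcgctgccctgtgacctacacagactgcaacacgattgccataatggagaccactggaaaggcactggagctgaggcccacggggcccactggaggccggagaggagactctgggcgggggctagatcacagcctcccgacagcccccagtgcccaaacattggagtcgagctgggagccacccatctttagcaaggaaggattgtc
The Hoxb1 window held 1 match to TGATNNAT, the joint Pbx and Hox site, at positions -162 to -155 from the start, a motif found in 8.85% of the 32851 promoters of this length and in 4 of the 24 Hox windows (Hoxa2, Hoxb1, Hoxb8 and Hoxd11). The Hoxa7 window held 2 matches to TTTATG, the Cdx site, which 11.9% of all promoters and 5 Hox windows held. The Hoxc4 window held 1 match on the other strand to AGTTCA, a retinoic acid receptor half-site, which 14% of all promoters and 2 Hox windows held. The Hoxd1 window held none of the 6 motifs. TGACAG (Meis and Pknox, 19.2% of promoters), AGGTGTGA (T-box, 1.28%) and TATAAA (a core promoter box, 13.6%) had no match in these 4 windows, and across the 24 Hox windows they were found in 2, 1 and 4. These matches are letters in a window and say nothing of binding.

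Libraries differed within groups in ways that touched most Hox loci. Replicate 1 of the Eo- cells was the highest of its group at 30 of 33 Hox loci, against 31.2% of all loci tested, and replicate 1 of the Eo+ cells was the highest at 26 of 33, against 25.8%. The ratio of replicate 1 to the mean of the other 3 libraries had a median of 5.76 over the Hox loci in Eo- cells and 3.90 in Eo+ cells, where 29 loci had a value, and medians over all loci tested were 0.993 and 0.987. Among ESCs, replicates 1 and 5 were both above replicates 2 and 6 at 27 of 33 Hox loci, against 20.5% of all loci tested, and the exceptions were Hoxb1, Hoxb5, Hoxb13, Hoxc12, Hoxc13 and Hoxd1. The summed level of 14 feeder or fibroblast markers split the ESC libraries the same way, with 378, 195, 408 and 144 CPM (counts scaled by library total and by TMM, trimmed mean of M-values, factors) in ESC replicates 1, 2, 5 and 6, and lay between 33.9 and 49.5 CPM in the day 3 libraries. Of these 14 markers, 12 were tested and 10 were lower in each sorted fraction than in ESCs. Of all loci tested, 31.3% in Eo- and 36.1% in Eo+ cells were called lower. In each fraction 1 was called higher, which was Pdgfrb in Eo+ cells (0.70 on the log2 scale, adjusted p = 0.00155) and Thy1 in Eo- cells (0.62, adjusted p = 0.0149). S100a4 fell from 11.9 CPM in ESCs to 0.0104 in Eo- and 0.00744 in Eo+ cells, Col1a1 fell from 63.8 CPM in ESCs to 1.86 in Eo- and 3.20 in Eo+ cells, and Lum and Fap, below the level tested, were at 0.149 and 0.1 CPM in ESCs. The part of feeder RNA in the ESC levels of Hox genes was not tested. Eomes, the gene of the sort, rose from 46.5 ± 8.82 CPM (SD, n = 4) in ESCs to 137 ± 22.2 in Eo- and 527 ± 96.9 in Eo+ cells. With Eomes among them, 8 of 8 mesendoderm markers were above the Eo- level in Eo+ cells, where 23% of all loci tested were called higher. Neuroectoderm markers were lower in both fractions than in ESCs at 4 of 4 tested genes, and 4 of 6 visceral endoderm markers were higher in Eo+ cells than in ESCs, with summed levels of 82.6, 4.46, 40.2 and 16.9 CPM in Eo+ replicates 1, 2, 5 and 6. In Eo- cells the summed level of these 6 markers was 12.1 CPM in replicate 1, the library that was highest at most Hox loci, and 2.59, 3.28 and 3.43 CPM in replicates 2, 5 and 6. Their part in the Hox levels was not tested. In such sorted bulk samples, fewer cells that use a gene and less RNA per cell cannot be told apart.

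**Figure D1:**
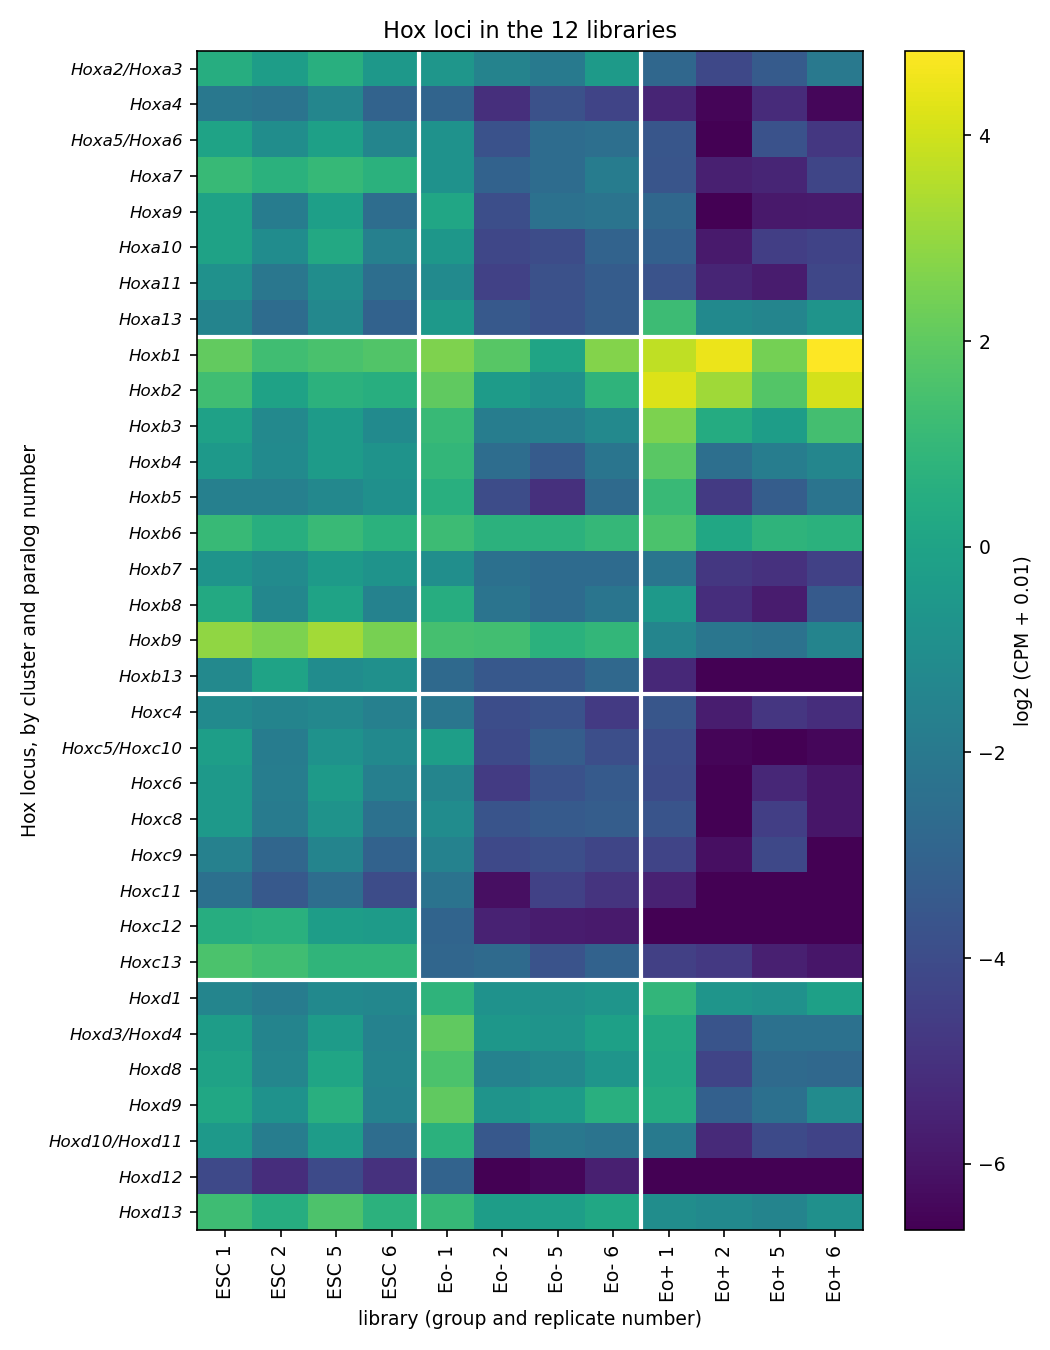
Level of each Hox locus (rows, by cluster and paralog number) in each library (columns, by group and replicate number), as log2 of CPM plus 0.01. Hoxb1 and Hoxb2 are brightest in the Eo+ libraries, most HoxA and HoxC loci darken from ESC to Eo- to Eo+, and replicate 1 is the brightest Eo- library at 30 of 33 loci.

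Hox transcripts were scarce in all groups when levels were set per exon length, as FPKM from the TMM-scaled CPM. The median over the 33 loci was 0.154 FPKM in ESCs, 0.0682 in Eo- cells and 0.0141 in Eo+ cells, and 26, 14 and 11 loci had a mean over 0.1 FPKM. The 26 include Hoxa9, at 0.101 FPKM in ESCs with TMM factors and 0.0991 without them, the value by which it was not tested. Hoxb1 led in every group, at 1.33 ± 0.311 FPKM in ESCs, 1.79 ± 1.05 in Eo- and 7.25 ± 4.25 in Eo+ cells (SD, n = 4). In ESCs it was followed by Hoxc13 (0.912 ± 0.229 FPKM), Hoxd13 (0.857 ± 0.298 FPKM) and Hoxb9 (0.605 ± 0.148 FPKM), where neighbours in this order lay within their spread. In Eo+ cells Hoxb2 came next at 2.42 ± 1.43 FPKM, then Hoxb6 at 0.503 ± 0.214, Hoxd1 at 0.498 ± 0.310 and Hoxb3 at 0.399 ± 0.338, the last 3 not apart beyond their spread. With the length of the longest transcript, Hoxb3 was above Hoxb6 at 0.704 FPKM and Hoxd1 at 0.498. Hoxb1 and Hoxb2 together took 11.1% to 18.5% of the summed Hox CPM in ESC libraries, 15% to 39.7% in Eo- libraries and 55.6% to 87.1% in Eo+ libraries. The whole HoxB cluster took 48.9% to 58.2% in ESCs and 83.4% to 95% in Eo+ cells. With that length in place of all exons, 14 of 78 FPKM values of the better expressed loci moved by more than the SD of the libraries.

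Between Eo+ cells and ESCs, the rises lay among the low paralog numbers and the falls along the rest of the clusters. Of the 28 loci tested, 4 rose, 17 fell and 7 did not pass the test (limma-voom, adjusted p of at most 0.05), where 35.8% of all loci tested were called higher and 36.1% called lower. The median log2 fold change was -3.57 over the 28 loci and 0.0024 over all loci. Among paralog numbers 1 to 3, 4 of 6 loci rose and 1 fell. Among numbers 4 to 8, none of 13 rose and 9 fell, and among numbers 9 to 13, none of 9 rose and 7 fell. A merged locus is counted at its lower number. Hoxc5/Hoxc10, which fell, is thus among numbers 4 to 8, and Hoxd3/Hoxd4, not called, among numbers 1 to 3. Of the 28 loci, 19 were called with no overlap between the libraries of the groups, as were 63.7% of all loci tested. Without the 3 libraries numbered 1, an alternative chosen after seeing the data, 5 rose and 22 fell, where 33.8% and 33.4% of all loci tested did, and the 21 loci called with all libraries were called again in the same direction. The loci added were Hoxa13 upward and Hoxb4, Hoxb5, Hoxd3/Hoxd4, Hoxd8 and Hoxd9 downward.

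**Figure D2:**
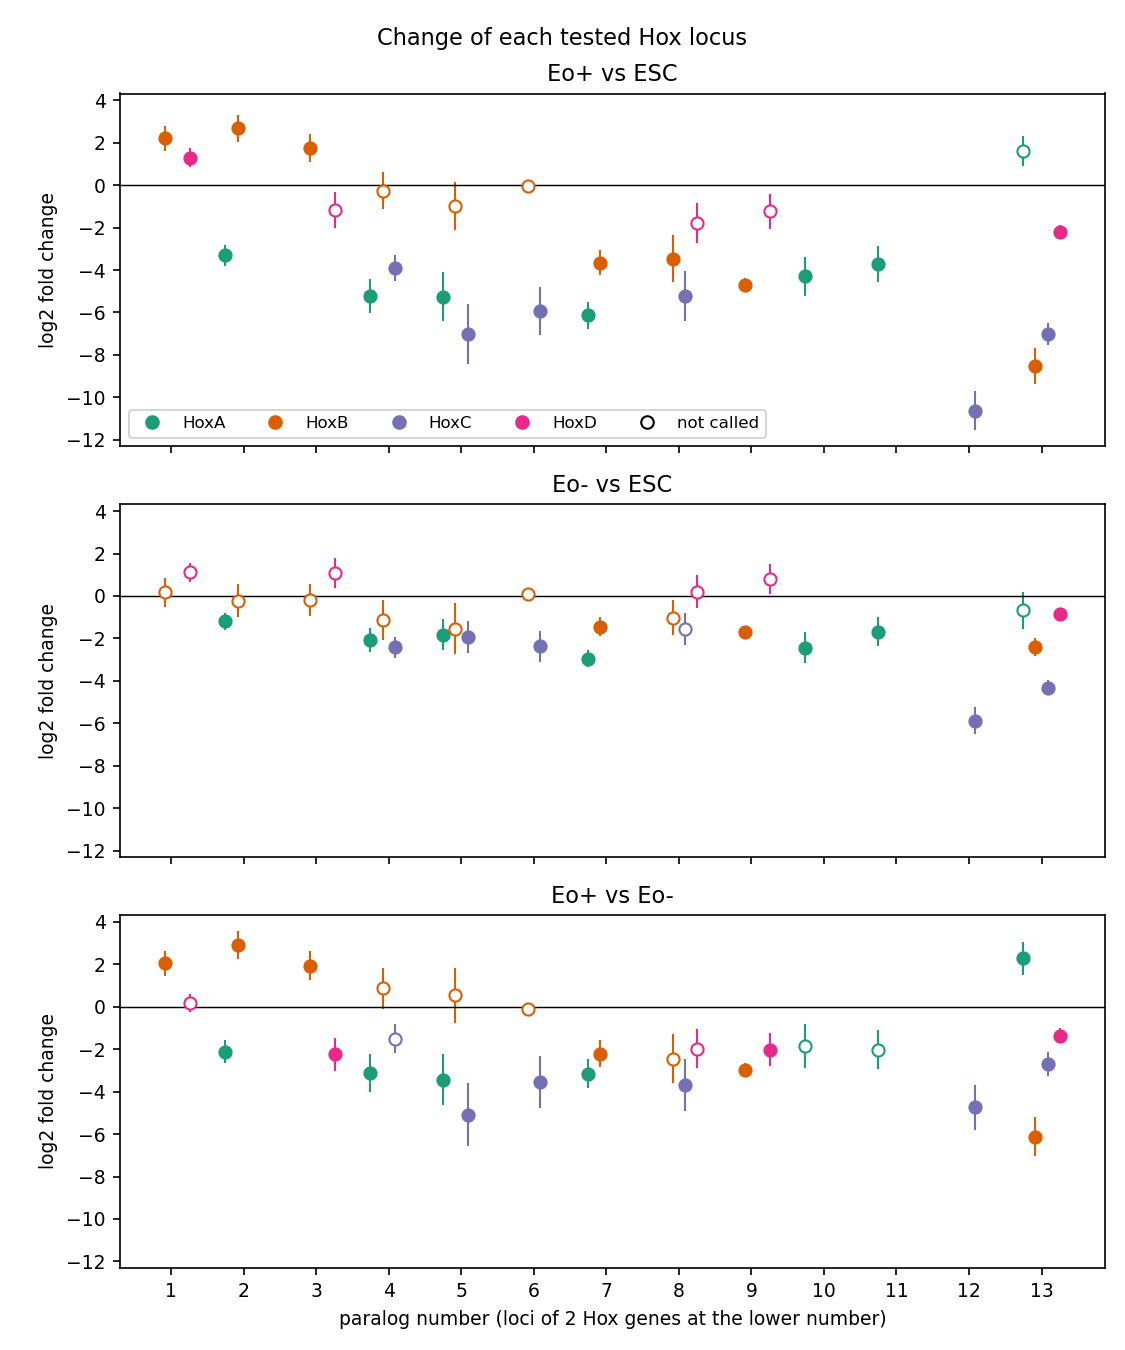
Log2 fold change of each of the 28 tested Hox loci (y axis, bars give the standard error of the fit) against its paralog number (x axis, coloured by cluster) in the 3 comparisons. Filled points passed the test; in Eo+ cells against ESCs the points above 0 that passed are Hoxb1, Hoxb2, Hoxb3 and Hoxd1, and Hoxc12 is the lowest.

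Hoxb1, which sets the identity of a hindbrain segment and is among the first Hox genes used in the gastrula, had, in replicates 1, 2, 5 and 6 of each group in turn, 4.19, 2.44, 2.89 and 3.24 CPM in ESCs, 6.12, 3.58, 1.03 and 6.39 in Eo- and 13.2, 22.5, 5.30 and 28.3 in Eo+ cells. All 4 Eo+ libraries were above the 4 ESC libraries, with a log2 fold change of 2.2 ± 0.59 SE at an adjusted p of 0.00415, whereas Eo- libraries overlapped ESCs (0.16 ± 0.69 SE at an adjusted p of 0.847). Hoxb2, a hindbrain gene beside it, had 2.47, 0.970, 1.65 and 1.45 CPM in ESCs, 4.05, 0.765, 0.541 and 1.76 in Eo- and 18.8, 9.24, 3.38 and 17.1 in Eo+ cells. It showed the largest rise of the Hox loci, 2.69 ± 0.64 SE at an adjusted p of 0.00178, again with no overlap. Hoxb3, which acts in hindbrain and pharyngeal arches, had 0.938, 0.416, 0.765 and 0.434 CPM in ESCs, 2.12, 0.284, 0.295 and 0.415 in Eo- and 5.80, 1.32, 0.824 and 2.63 in Eo+ cells. Eo+ replicate 5 lay among the ESC libraries, and the change of 1.74 ± 0.66 SE at an adjusted p of 0.0292 was lost when ESC replicate 2 or 6 or Eo+ replicate 1 or 6 was left out, with an adjusted p of up to 0.0799. Hoxd1, a group 1 paralog of Hoxb1 used in sensory neurons, had 0.359, 0.268, 0.431 and 0.383 CPM in ESCs, 1.74, 0.558, 0.544 and 0.625 in Eo- and 1.87, 0.617, 0.543 and 0.897 in Eo+ cells. Each day 3 library was above each ESC library, with 1.29 ± 0.46 SE at an adjusted p of 0.0212 in Eo+ and 1.11 ± 0.46 SE at an adjusted p of 0.0504 in Eo- cells. With the replicate number as a block, the Eo- change passed (1.22, adjusted p = 0.00345). The Eo+ call was lost without ESC replicate 2 or Eo+ replicate 1, with an adjusted p of up to 0.0617.

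**Figure D3:**
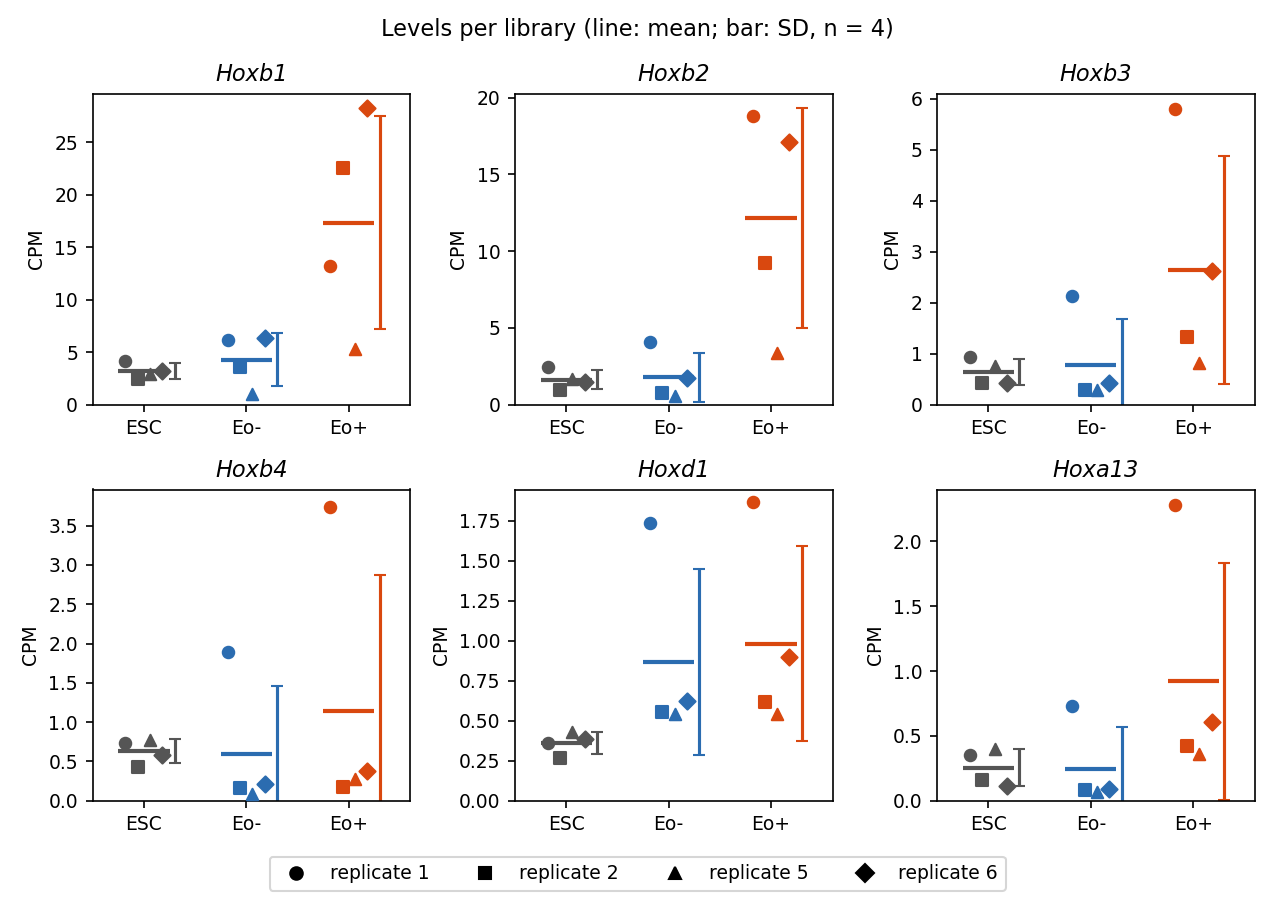
CPM of Hoxb1, Hoxb2, Hoxb3, Hoxb4, Hoxd1 and Hoxa13 in every library (symbols mark the replicate number), with the group mean (line) and SD (bar, n = 4, ended at 0 where it would pass below). Eo+ libraries lie above ESCs without overlap at Hoxb1, Hoxb2 and Hoxd1, and replicate 1 stands apart in Eo- and Eo+ cells at Hoxb4 and Hoxa13.

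Further along HoxB, Hoxb4, Hoxb5 and Hoxb6 passed no test against ESCs with all libraries. Hoxb4, known for its use in blood stem cells, had 0.732, 0.432, 0.768 and 0.585 CPM in ESCs, 1.89, 0.162, 0.0875 and 0.210 in Eo- and 3.74, 0.171, 0.280 and 0.372 in Eo+ cells. Replicate 1 was high in both fractions and the other 3 libraries of each were below all ESC libraries, and the change in Eo+ cells was -0.25 ± 0.88 SE at an adjusted p of 0.808 with all libraries and -1.16, with an adjusted p of 0.0180, without those numbered 1. It was 0.43, with an adjusted p of 0.497, with the replicate number as a block and 0.86, with an adjusted p of 0.464, with edgeR. Hoxb5, used in the trunk and the gut nervous system, had 0.307, 0.311, 0.397 and 0.532 CPM in ESCs, 1.49, 0.0527, 0.0202 and 0.144 in Eo- and 2.18, 0.0285, 0.0942 and 0.204 in Eo+ cells. It too was high in replicate 1 of both fractions, and its change was -0.99 ± 1.13 SE at an adjusted p of 0.448 with all libraries and -2.31, with an adjusted p of 0.00883, without those numbered 1. It was 0.31, with an adjusted p of 0.740, under the block and 0.70, with an adjusted p of 0.631, with edgeR, so no direction can be read for either gene. The locus of Hoxb6, a trunk gene, had 2.08, 1.44, 2.18 and 1.58 CPM in ESCs, 2.32, 1.66, 1.66 and 2.01 in Eo- and 2.97, 1.13, 1.73 and 1.58 in Eo+ cells. It was the flattest of the Hox loci, with changes of -0.04 ± 0.26 SE at an adjusted p of 0.890 in Eo+ and 0.08 ± 0.26 SE at an adjusted p of 0.802 in Eo- cells, and no alternative called it.

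The rest of HoxB fell. Hoxb7, a trunk gene, had 0.596, 0.454, 0.762 and 0.588 CPM in ESCs, 0.495, 0.177, 0.152 and 0.153 in Eo- and 0.213, 0.0259, 0.0211 and 0.0358 in Eo+ cells. All Eo+ libraries were below all ESC libraries (-3.66 ± 0.59 SE at an adjusted p of 7.56e-05), and 1 of the Eo- libraries reached the ESC range (-1.46 ± 0.44 SE at an adjusted p of 0.0112), a call lost with edgeR (adjusted p = 0.0971) and DESeq2 (0.0676). Hoxb8, which acts in myeloid progenitors, had 1.24, 0.390, 0.982 and 0.332 CPM in ESCs, 1.41, 0.202, 0.152 and 0.210 in Eo- and 0.723, 0.0181, 0.00843 and 0.0841 in Eo+ cells. It fell in Eo+ cells (-3.47 ± 1.11 SE at an adjusted p of 0.0123) although Eo+ replicate 1 lay among the ESC libraries, and the call was lost with edgeR (adjusted p = 0.160) and DESeq2 (0.148). The Hoxb9 locus, with Hoxb9 known from the ribs, had 7.60, 5.91, 9.31 and 5.51 CPM in ESCs, 2.72, 2.53, 1.57 and 1.93 in Eo- and 0.358, 0.217, 0.191 and 0.355 in Eo+ cells. Neither fraction overlapped ESCs, with changes of -1.70 ± 0.22 SE at an adjusted p of 1.60e-05 in Eo- and -4.69 ± 0.31 SE at an adjusted p of 1.72e-08 in Eo+ cells. Hoxb13, a tail gene at the far end of the cluster, had 0.416, 0.992, 0.464 and 0.538 CPM in ESCs, 0.143, 0.0784, 0.0808 and 0.139 in Eo- and 0.0153, 0, 0 and 0 in Eo+ cells. Eo+ cells had 12 counts in replicate 1 and 0 counts in the others, so the fitted -8.52 ± 0.87 SE at an adjusted p of 9.70e-07 depends on the added count and only its direction can be read.

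In HoxA, 6 of 7 tested loci were called lower in Eo+ cells and none higher. At 8 of 8 HoxA loci, ESC replicates 1 and 5 were above replicates 2 and 6, as the feeder markers were, and the part of this in the falls was not tested. The Hoxa2/Hoxa3 locus, whose genes pattern the pharyngeal arches, was the only one of paralog numbers 1 to 3 to fall, and had 1.39, 0.817, 1.5 and 0.672 CPM in ESCs, 0.632, 0.343, 0.257 and 0.746 in Eo- and 0.131, 0.0466, 0.0872 and 0.238 in Eo+ cells. Its Eo+ libraries were below ESCs with no overlap (-3.31 ± 0.51 SE at an adjusted p of 5.22e-05), against the rise of Hoxb2 and Hoxb3 in the same libraries. The Hoxa5/Hoxa6 locus, with Hoxa5 known from the lung, had 1.00, 0.476, 0.897 and 0.360 CPM in ESCs, 0.556, 0.0643, 0.158 and 0.173 in Eo- and 0.0739, 0, 0.0633 and 0.0265 in Eo+ cells. It fell in Eo+ cells (-5.25 ± 1.14 SE at an adjusted p of 0.000894), where replicate 2 had 0 counts, so the size of the change depends on the added count. Hoxa7, a gene of the thoracic spine, had 2.08, 1.57, 2.06 and 1.58 CPM in ESCs, 0.569, 0.111, 0.156 and 0.274 in Eo- and 0.0701, 0.0103, 0.0127 and 0.0420 in Eo+ cells. It showed the largest fall of HoxA in Eo+ cells (-6.14 ± 0.63 SE at an adjusted p of 1.06e-06) and was also below all ESC libraries in Eo- cells (-2.97 ± 0.40 SE at an adjusted p of 2.68e-05). Hoxa10, a gene of uterus and limb, had 0.963, 0.470, 1.20 and 0.312 CPM in ESCs, 0.667, 0.0450, 0.0539 and 0.115 in Eo- and 0.105, 0.00776, 0.0337 and 0.0389 in Eo+ cells. It fell with no overlap in Eo+ cells (-4.30 ± 0.93 SE at an adjusted p of 0.000914), whereas Eo- replicate 1 lay within the ESC range. Hoxa4 and Hoxa11, with means of 0.230 and 0.356 CPM in ESCs, fell likewise, with log2 fold changes of -5.22 and -3.71. Hoxa4 had 1 count in each of Eo+ replicates 2 and 6, so the size of its change depends on the added count.

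Hoxa13, a gene of digits and hindgut at the far end of HoxA, was the 1 tested HoxA locus that was not called lower. It had 0.352, 0.156, 0.397 and 0.112 CPM in ESCs, 0.733, 0.0823, 0.0633 and 0.0930 in Eo- and 2.28, 0.423, 0.363 and 0.610 in Eo+ cells. In Eo+ cells 3 libraries were above every ESC library and replicate 5 was below the highest of them, and the change of 1.60 ± 0.71 SE at an adjusted p of 0.0587 missed the threshold with all libraries. It passed without the 3 libraries numbered 1 (1.23, adjusted p = 0.0229), with the replicate number as a block (1.83, adjusted p = 0.00134) and with DESeq2 (1.81, adjusted p = 0.0298). It also passed with no FPKM filter, with quality weights, in a fit of the 2 groups only, and without Eo- replicate 1 or Eo+ replicate 2 or 5 (adjusted p from 0.0263 to 0.0495). It did not pass in the other alternatives, and was lowest without Eo+ replicate 1 (1.00, adjusted p = 0.169). Hottip, on the opposite strand over the Hoxa13 locus, was not tested, and the next gene beyond the cluster, the homeobox gene Evx1 of the primitive streak, rose from 6.18 ± 4.12 CPM in ESCs to 118 ± 50.6 in Eo+ cells, by 4.42 on the log2 scale (adjusted p = 3.16e-05).

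In HoxC every tested locus fell. All 6 tested loci were lower in Eo+ cells with no overlap, and the median fitted change was -6.47, a size that depends on the added count. The summed level of the 8 loci went from 3.93 to 7.54 CPM in ESC libraries to 0.0389 to 0.339 CPM in Eo+ libraries. Hoxc13, a hair and nail gene and the strongest HoxC locus of ESCs, had 2.96, 2.43, 1.81 and 1.78 CPM in ESCs, 0.130, 0.145, 0.0660 and 0.112 in Eo- and 0.0357, 0.0272, 0.00984 and 0.00623 in Eo+ cells. It was below ESCs with no overlap in Eo- (-4.33 ± 0.35 SE at an adjusted p of 2.74e-07) and in Eo+ cells (-7.03 ± 0.51 SE at an adjusted p of 4.28e-08). Hoxc12, next to it, had 1.39, 1.53, 0.837 and 0.766 CPM in ESCs, 0.119, 0.0116, 0.00808 and 0.00764 in Eo-, and 0 in every library of Eo+ cells. With 0 counts in every Eo+ library it was at least 242-fold lower than in ESCs, taking 3 counts per library as the floor, and its change in Eo- cells was -5.88 ± 0.63 SE at an adjusted p of 3.48e-06. Neither of these followed the order of the feeder markers among ESC libraries. Hoxc6, a thoracic gene, had 0.701, 0.284, 0.745 and 0.297 CPM in ESCs, 0.359, 0.0296, 0.0633 and 0.0853 in Eo- and 0.0523, 0, 0.0141 and 0.00623 in Eo+ cells. Its change in Eo+ cells, where replicate 2 had 0 counts, was -5.91 ± 1.12 SE at an adjusted p of 0.000311, a size that depends on the added count. The Hoxc5/Hoxc10 locus, with Hoxc10 known from the lumbar region, had 0.849, 0.273, 0.560 and 0.422 CPM in ESCs, 0.852, 0.0501, 0.0943 and 0.0573 in Eo- and 0.0561, 0.00129, 0 and 0.00156 in Eo+ cells. Outside replicate 1, Eo+ libraries held at most 1 count at this locus, and the fitted change of -7.02 ± 1.41 SE at an adjusted p of 0.000479 depends on the added count. Hoxc4 and Hoxc8, genes of neck and thorax, fell by 3.91 and 5.23 on the log2 scale in Eo+ cells. Hoxc8 had 0 counts in Eo+ replicate 2, so the size of its change depends on the added count.

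HoxD had 1 rise, Hoxd1, and 1 fall among its 5 tested loci in Eo+ cells. Hoxd13, a digit gene, was the only tested HoxD locus to fall in Eo+ cells in the limma-voom test of all libraries with no block. It had 2.42, 1.42, 3.03 and 1.64 CPM in ESCs, 2.02, 0.824, 0.861 and 1.13 in Eo- and 0.484, 0.420, 0.356 and 0.529 in Eo+ cells. Its Eo+ libraries were below ESCs with no overlap (-2.21 ± 0.34 SE at an adjusted p of 4.43e-05). The Hoxd3/Hoxd4 locus, of neck and hindbrain genes, had 0.828, 0.356, 0.767 and 0.330 CPM in ESCs, 4.02, 0.670, 0.593 and 0.917 in Eo- and 1.24, 0.0685, 0.184 and 0.182 in Eo+ cells. Hoxd8, a trunk gene, had 0.963, 0.379, 1.07 and 0.351 CPM in ESCs, 2.99, 0.326, 0.395 and 0.624 in Eo- and 1.18, 0.0414, 0.145 and 0.137 in Eo+ cells. Hoxd9, a trunk and limb gene, had 1.12, 0.560, 1.49 and 0.326 CPM in ESCs, 4.12, 0.605, 0.770 and 1.48 in Eo- and 1.30, 0.105, 0.177 and 0.450 in Eo+ cells. At all 3 the Eo- and Eo+ libraries overlapped ESCs, replicate 1 was the highest of each fraction, and none passed the limma-voom test of all libraries in Eo+ cells (adjusted p = 0.228, 0.103 and 0.198) or in Eo- cells (0.194, 0.827 and 0.333). Without the libraries numbered 1 they were lower in Eo+ cells than in ESCs, by 1.78, 2.50 and 1.72 on the log2 scale, and in Eo- cells they still passed no test (adjusted p = 0.160, 0.628 and 0.529). With the replicate number as a block, the Hoxd8 change in Eo+ cells passed (-1.23, adjusted p = 0.0395), as did Hoxd3/Hoxd4 in Eo- cells, upward (1.30, adjusted p = 0.00879). Hoxd8 also passed in Eo+ cells with quality weights (-2.21, adjusted p = 0.0245) and without Eo- or Eo+ replicate 1, and Hoxd3/Hoxd4 without Eo+ replicate 1 (adjusted p from 0.0220 to 0.0485 over these 3 values).

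Eo- cells differed from ESCs mainly by falls. Of 28 loci, 15 fell, none was called higher and 13 did not pass (limma-voom), where 30.9% of all loci tested were called higher and 31.3% called lower. At an unadjusted p under 0.05, the count of higher loci was 1, and edgeR and DESeq2 each called 1, where 30.5% and 28.8% of all loci tested were called higher. It was Hoxd1 (log2 fold change 1.27, adjusted p = 0.0257, and 1.21, adjusted p = 0.0138). With the replicate number as a block, Hoxd1 (1.22, adjusted p = 0.00345) and Hoxd3/Hoxd4 (1.30, adjusted p = 0.00879) were higher. Hoxc8 was added there as lower (-1.40, adjusted p = 0.0132), and no fall was lost. Under the block 33% of all loci tested were higher and 33% lower. The median was -1.49 over the Hox loci and 0.016 over all loci, and 6 of 28 were called with no overlap between libraries, where 54.2% of all loci tested were. The 6 were Hoxa7, Hoxb9, Hoxb13, Hoxc4, Hoxc12 and Hoxc13. Falls in HoxA counted 6 of 7 loci, in HoxB 3 of 10 (Hoxb7, Hoxb9 and Hoxb13), in HoxC 5 of 6 and in HoxD 1 of 5 (Hoxd13). The falls of Hoxa2/Hoxa3, Hoxa5/Hoxa6, Hoxa11, Hoxc5/Hoxc10 and Hoxd13 were lost when single libraries were left out. These were Eo- replicate 2 or 5 for all 5, ESC replicate 1 or 5 for all but the first, Eo- replicate 6 for Hoxa5/Hoxa6, Hoxa11 and Hoxc5/Hoxc10, and Eo+ replicate 6 for Hoxa5/Hoxa6, and the adjusted p reached 0.0608, 0.145, 0.148, 0.126 and 0.0754. With edgeR the falls of Hoxa5/Hoxa6, Hoxa10, Hoxa11, Hoxb7, Hoxc5/Hoxc10 and Hoxc6 did not pass (adjusted p from 0.0661 to 0.418). With DESeq2 all of these but Hoxa10 did not (0.0529 to 0.430), nor did Hoxa2/Hoxa3 with quality weights (0.0583) or Hoxa5/Hoxa6 with library totals (0.0534). Without the 3 libraries numbered 1, 19 loci fell, where 28.2% of all loci tested did, the 15 among them, and Hoxb4, Hoxb5, Hoxb8 and Hoxc8 were added.

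Between the sorted fractions, which were of the same age, 3 loci at the 3' end of HoxB and the 5' locus Hoxa13 were higher in Eo+ cells. Of 28 loci, 4 were higher in Eo+ cells, 15 were lower and 9 did not pass (limma-voom), where 23% of all loci tested were called higher and 24.6% lower. The median was -2.07 over the Hox loci and -0.015 over all loci, and 9 of 28 were called with no overlap, where 41.2% of all loci tested were. Higher were Hoxb1 (2.04 ± 0.58 SE at an adjusted p of 0.0103), Hoxb2 (2.91 ± 0.65 SE at an adjusted p of 0.00231), Hoxb3 (1.93 ± 0.67 SE at an adjusted p of 0.0289) and Hoxa13 (2.28 ± 0.77 SE at an adjusted p of 0.0257), and at all 4 the libraries of the fractions overlapped. Lower with no overlap were Hoxa2/Hoxa3, Hoxa4, Hoxa7, Hoxb9, Hoxb13, Hoxc8, Hoxc12, Hoxc13 and Hoxd13. Lower with overlap were Hoxa5/Hoxa6, Hoxb7, Hoxc5/Hoxc10, Hoxc6, Hoxd3/Hoxd4 and Hoxd9. Calls of Hoxb3 and Hoxa13 were lost when Eo- replicate 2, 5 or 6 or Eo+ replicate 1, and for Hoxb3 also Eo+ replicate 6, was left out (adjusted p up to 0.0905 and 0.0814). Calls of Hoxa5/Hoxa6, Hoxc6, Hoxc8, Hoxd3/Hoxd4 and Hoxd9 were lost without Eo- replicate 1 or Eo+ replicate 2 or 6, for the last 2 also without Eo+ replicate 5, and for Hoxd9 also without Eo- replicate 6 or ESC replicate 1 or 2 (adjusted p up to 0.0905, 0.0920, 0.0829, 0.110 and 0.152). With edgeR the calls of Hoxa13, Hoxb3, Hoxd3/Hoxd4 and Hoxd9 did not pass (adjusted p from 0.0572 to 0.0813). With DESeq2 those of Hoxd3/Hoxd4 and Hoxd9 did not (0.0693 and 0.0718). Nor did those of Hoxa5/Hoxa6, Hoxb3, Hoxd3/Hoxd4 and Hoxd9 in a fit of the 2 groups only (0.0537 to 0.0681) or Hoxd9 with no FPKM filter (0.0507).

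Replicate numbers were taken to mark the differentiation sets, so Eo+ cells were set against Eo- cells of the same number, on the TMM-scaled CPM. Hoxb1 was higher in Eo+ cells by 2.15, 6.29, 5.17 and 4.43-fold in sets 1, 2, 5 and 6, and Hoxb2 by 4.64, 12.1, 6.25 and 9.73-fold. Hoxb3 was higher by 2.73, 4.65, 2.79 and 6.33-fold and Hoxa13 by 3.11, 5.14, 5.73 and 6.56-fold. Each of the 4 was thus higher in 4 of 4 sets although their libraries overlapped. Hoxb4 was also higher in 4 of 4 sets, from 1.05 to 3.20-fold. Hoxd1 was higher in 3 of 4 sets, with 0.543 CPM in Eo+ and 0.544 in Eo- cells of set 5. The Eo+ to Eo- ratio was below 1 in 4 of 4 sets at 24 of the 33 loci. Of the 28 tested loci, 17.9% were higher and 71.4% lower in 4 of 4 sets, against 33% and 33.6% of all loci tested. The other 4 of the 33 were Hoxb5, Hoxb6 and Hoxd1, with mixed directions, and Hoxd12, with 0 counts in Eo- replicate 2 and in all Eo+ libraries. With CPM over the library total alone, an alternative chosen after seeing the data, Hoxd1 was higher in 4 of 4 sets, by 1.02 to 1.39-fold, so that 21.4% of the tested Hox loci were higher, against 30.8% of all loci tested. With the replicate number as a block over all 12 libraries, 4 loci were higher and 20 lower, where 25.9% and 27.5% of all loci tested were. In a fit of the 8 sorted libraries with the set as a block, an alternative chosen after seeing the data, 6 loci were higher and 20 lower, where 28.9% and 29.1% of all loci tested were, and the 19 loci called without the block were called again. Added were Hoxb4 (log2 fold change 0.92, adjusted p = 0.00194) and Hoxb5 (0.56, adjusted p = 0.0455) as higher, and Hoxa10 (-2.08, adjusted p = 0.00101), Hoxa11 (-2.15, adjusted p = 0.00128), Hoxb8 (-1.57, adjusted p = 0.00561), Hoxc4 (-1.51, adjusted p = 0.00473) and Hoxd8 (-1.68, adjusted p = 0.000342) as lower. The block over all 12 libraries called neither Hoxb4 (0.90, adjusted p = 0.222) nor Hoxb5 (0.57, adjusted p = 0.606).

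**Figure D4:**
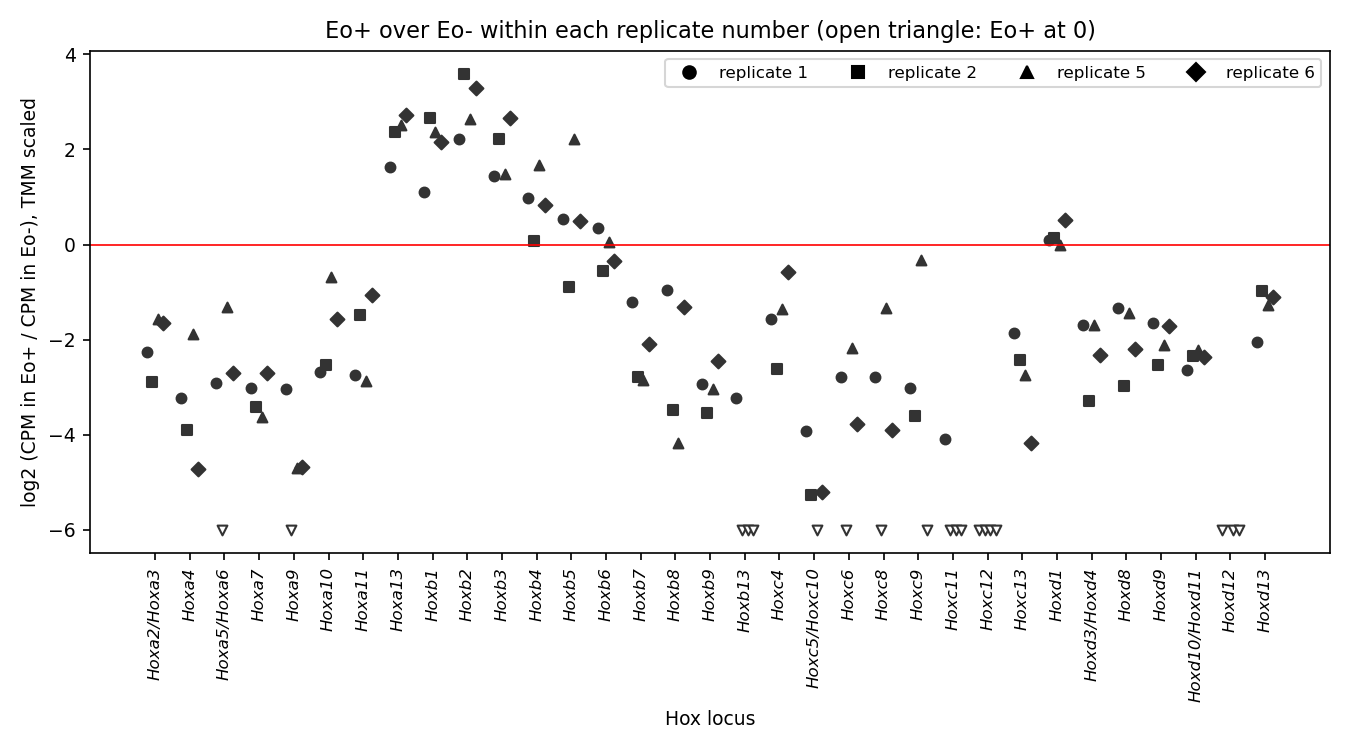
Log2 ratio of TMM-scaled CPM in Eo+ over Eo- cells (y axis) for each Hox locus (x axis, by cluster and paralog number), 1 symbol per replicate number, with open triangles where Eo+ was at 0 counts and none for Hoxd12 in replicate 2, where Eo- was at 0. Hoxa13, Hoxb1, Hoxb2, Hoxb3 and Hoxb4 lie above 0 in 4 of 4 sets, Hoxd1 lies just below 0 in set 5 (above 0 with CPM over the library total alone), and the ratios of Hoxb7, Hoxb8 and Hoxb9 lie below 0 in 4 of 4.

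The 5 loci under the level tested were low throughout. Hoxa9, which acts in blood progenitors, had 0.955, 0.276, 0.872 and 0.161 CPM in ESCs, 1.08, 0.0566, 0.183 and 0.2 in Eo- and 0.131, 0, 0.00703 and 0.00778 in Eo+ cells. Eo- replicate 1 was above every ESC library, and the other Eo- libraries lay near or below the lowest ESC libraries. The Hoxd10/Hoxd11 locus, of limb and lumbar motor neuron genes, had 0.706, 0.285, 0.790 and 0.163 CPM in ESCs, 1.60, 0.0784, 0.230 and 0.201 in Eo- and 0.257, 0.0155, 0.0492 and 0.0389 in Eo+ cells, with the same library the highest. Hoxc9, of the thorax, had means of 0.227 ± 0.123 CPM in ESCs, 0.120 ± 0.141 in Eo- and 0.0228 ± 0.0242 in Eo+ cells. Hoxc11, a limb gene, had 0.118 ± 0.0591 CPM in ESCs and 0.0645 ± 0.0879 in Eo- cells, with 9 counts in Eo+ replicate 1 and 0 in the others. Hoxd12 had 0.0341 ± 0.0165 CPM in ESCs and no count in any library of Eo+ cells, at least 7.30-fold below. In a fit with no filter on FPKM, all 5 were lower in Eo+ cells than in ESCs, with adjusted p from 0.000764 to 0.0266 and a log2 fold change of -2.86 at Hoxd10/Hoxd11. The other 4 had 0 counts in at least 1 Eo+ library, so only their direction can be read, and none of the 5 passed in Eo- cells against ESCs.

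**Figure D5:**
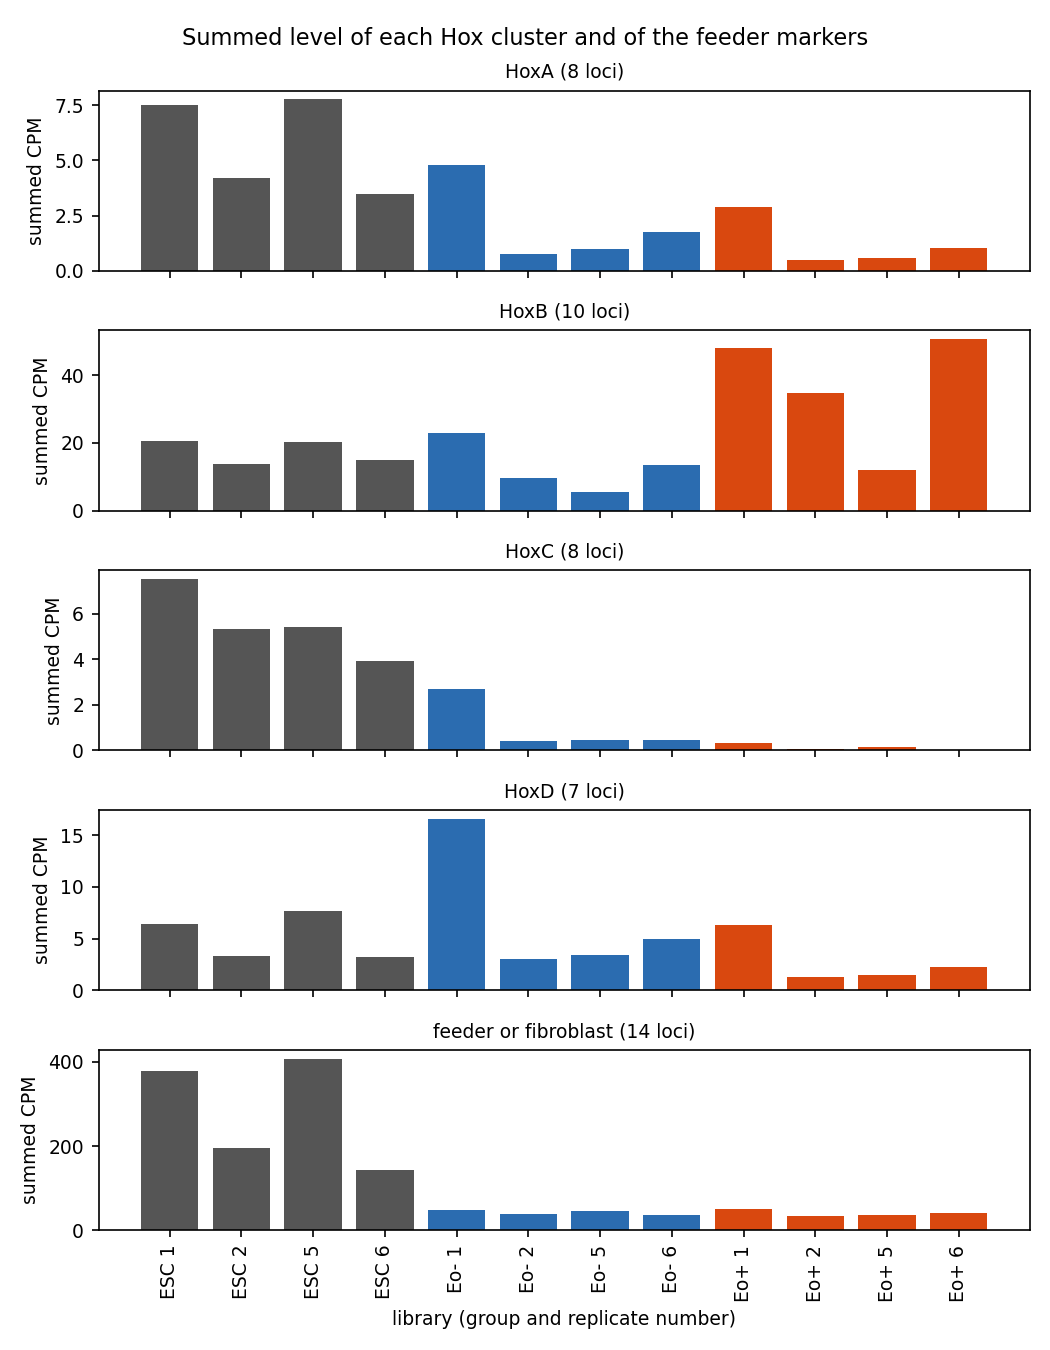
Summed CPM of the loci of each Hox cluster and of the 14 feeder or fibroblast markers (bars start at 0) in each library. HoxB reaches 11.8 to 50.7 CPM in Eo+ libraries, HoxC falls to at most 0.339 CPM there, and in ESCs replicates 1 and 5 are the highest libraries for each Hox cluster and for the feeder markers.

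Of 44 other loci within the clusters, 43 were antisense or other noncoding loci and 1, 5730596B20Rik, was classed as protein coding, and 5 of the 44 were tested. Hoxb3os, on the opposite strand over Hoxb2 and Hoxb3 (chr11:96342983-96354691, minus strand, in mm10), was at 0.841, 0.310, 0.577 and 0.570 CPM in ESC replicates 1, 2, 5 and 6, at 2.78, 0.798, 0.532 and 1.5 in Eo- and at 11, 7.94, 2.68 and 12.8 in Eo+ cells. It rose in Eo+ cells with no overlap (log2 fold change 3.76, adjusted p = 9.47e-05), as did Haglr, on the opposite strand over Hoxd1 and Hoxd3/Hoxd4 (0.357 ± 0.0741 to 1.23 ± 0.306 CPM, 1.77, adjusted p = 0.000185). Gm11536, over Hoxb3, also rose (3.07, adjusted p = 0.00652) with overlapping libraries. Lower were Gm15050, over Hoxa2/Hoxa3 (-3.21, adjusted p = 0.000564), and XLOC_026898, a non-annotated locus 11 bases beyond the Hoxc13 locus on the opposite strand, at 0.571 ± 0.0970 CPM in ESCs and 0 in all Eo+ libraries. In Eo- cells against ESCs, Haglr was higher and Gm15050 and XLOC_026898 were lower. In Eo+ against Eo- cells Hoxb3os, Haglr and Gm11536 were higher and none was lower.

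Of 8 TALE cofactors, with which Hox proteins bind DNA, 5 rose and 2 fell in Eo+ cells against ESCs. Of all loci tested, 35.8% rose and 36.1% fell there. Pbx3 went from 13.6 ± 1.36 CPM in ESCs to 40.4 ± 1.23 in Eo- and 101 ± 23.2 in Eo+ cells (2.87 on the log2 scale against ESCs, adjusted p = 9.43e-09), and Meis3 from 5.31 ± 1.08 to 15.4 ± 0.828 and 26.8 ± 1.18 (2.35, adjusted p = 2.01e-09), both with no overlap. Pbx4 (-0.90) and Pknox1 (-0.43) fell and Meis1 did not pass (adjusted p = 0.700). In Eo- cells Pbx2, Pbx3 and Meis3 rose and Pknox1 fell, where 30.9% and 31.3% of all loci tested did. Between the fractions 5 were higher in Eo+ cells, led by Meis2 (2.36, adjusted p = 0.000457) and Pknox2 (2.30, adjusted p = 4.33e-05), and Pbx4 and Pknox1 were lower. Of all loci tested, 23% were higher and 24.6% lower between the fractions.

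Of the Cdx and ParaHox genes, relatives of the Hox genes outside the clusters, 3 of 5 tested fell in Eo+ cells against ESCs and none rose. Of all loci tested, 36.1% fell and 35.8% rose there. Cdx1 was at 10.4 ± 3.54 CPM in ESCs, 0.303 ± 0.134 in Eo- and 1.11 ± 0.588 in Eo+ cells (change from ESCs on the log2 scale -3.33, adjusted p = 5.50e-06), with Gsx1 (-5.81, adjusted p = 6.47e-06) and Gsx2 (-2.13, adjusted p = 0.00405) the others. Gsx1 was at 0 in Eo+ replicate 6, so the size of its change depends on the added count. Cdx2 (8 ± 4.04, 16.9 ± 12.5 and 6.87 ± 3.51 CPM) and Cdx4 passed no test. Cdx1 and Gsx2 fell in Eo- cells, and between the fractions Cdx1 was higher and Gsx1 lower in Eo+ cells. Of 8 genes of the signals that act on Hox genes, 4 rose and 3 fell in Eo+ cells, against the same shares of all loci tested. Cyp26a1, which degrades retinoic acid, went from 9.16 ± 6.57 CPM in ESCs to 423 ± 79.4 in Eo+ cells (5.78, adjusted p = 2.22e-08), and Fgf8 from 40.2 ± 20.3 to 154 ± 31.6 (2.05, adjusted p = 3.59e-05), with Gdf11 and Rarb (1.49, overlapping libraries) the other 2. Rarg (-1.85, adjusted p = 1.32e-08), Aldh1a2 (-1.19), which makes retinoic acid, and Rara (-0.73) fell. In Eo- cells Cyp26a1, Gdf11 and Fgf8 rose and Rarg, Rara and Aldh1a2 fell, and between the fractions Cyp26a1, Rarb and Fgf8 were higher and Rarg lower in Eo+ cells. Of 7 posterior mesoderm genes, which include Wnt3a and the 3 Cdx genes of the lists above, T, Tbx6 (4.58, adjusted p = 5.87e-06) and Msgn1 rose and Cdx1 fell in each fraction against ESCs, and between the fractions T, Tbx6 and Cdx1 were higher in Eo+ cells. The shares of all loci tested in each comparison, given above for the TALE cofactors, apply to these lists too.

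Genes that border the clusters moved in both directions. Of 10 tested, 5 rose and 3 fell in Eo+ cells against ESCs, 2 rose and 2 fell in Eo- cells, and 5 were higher and 1 lower in Eo+ than in Eo- cells. Of all loci tested, 35.8% rose and 36.1% fell in Eo+ cells against ESCs, and 30.9% and 31.3% in Eo- cells. Between the fractions, 23% of all loci tested were higher and 24.6% lower in Eo+ cells. Beside HoxA, Skap2 fell from 47.8 ± 3.57 to 14.1 ± 1.32 CPM (log2 fold change -1.76, adjusted p = 3.06e-09) and Snx10 by 0.51, and Evx1 rose as given above. Beside HoxB, Ttll6 fell (-2.04, adjusted p = 8.68e-06), and beside HoxC, where all tested Hox loci fell, Calcoco1, Smug1 and Cbx5 rose by 0.47, 0.38 and 0.43. Mtx2, beside HoxD, rose by 0.68 (adjusted p = 4.34e-06).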

How the data were processed

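Poly(A) stranded RNA-seq libraries of 12 samples were analysed. Per the labels and the methods, the authors aligned reads with STAR to mm10 (GRCm38), assembled transcripts with Cufflinks 2.2.1, merged them, and used HTSeq 0.6.1 with strand to count reads on each locus. The deposited values are raw counts for 80012 loci, and the deposited merged annotation gave exons, names and matches to annotated transcripts. The protein-coding and long noncoding classes of the matched genes, and the annotated exons of Hox genes, came from GENCODE. CPM were counts over the library total times the TMM factor, and FPKM divided these by the summed exon length. Loci with a group mean over 0.1 FPKM from library totals without TMM factors (17922) were tested with limma-voom (limma 3.58.1, edgeR 4.0.16, R 4.3.3, TMM scaling, 1 mean per group, Benjamini-Hochberg adjustment over all loci tested, threshold 0.05), and the code was tested on simulated data. Alternatives used edgeR, DESeq2 1.42.0, other scalings, filters and samples. Values per library are given for the Hox loci at 0.5 CPM or more in a group, and other loci by means, changes or counts. A floor was 3 counts per library, 0.00354 to 0.00467 CPM, for counting error only. The methods name differentiation sets but do not number them, and the replicate numbers of the sample titles were taken to mark them. Deviations of same-numbered Eo- and Eo+ libraries correlated at 0.634, 0.311, 0.372 and 0.408, and those with ESCs at -0.125 to 0.432. The members and lists were chosen with earlier results of these data known. A further gene that matched the rule, and a gene of a comparison list, are not reported here.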

Additional observations from a re-analysis of the deposited data

Results flagged for a closer look

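In 26 of 78 groups of 4 libraries, 1 library lay far from the other 3 by Dixon's test, where chance gives about 1 in 20, and in all 26 it was the highest library, numbered 1. The 78 groups share libraries and are not independent.

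In Eo- cells replicate 1 stood apart at 15 loci. In HoxA it held 1.08 CPM of Hoxa9, 0.667 CPM of Hoxa10 and 0.733 CPM of Hoxa13. In HoxB it held 2.12 CPM of Hoxb3, 1.89 CPM of Hoxb4, 1.49 CPM of Hoxb5, 0.495 CPM of Hoxb7 and 1.41 CPM of Hoxb8. In HoxC it held 0.852 CPM of Hoxc5/Hoxc10, 0.359 CPM of Hoxc6 and 0.119 CPM of Hoxc12. In HoxD it held 1.74 CPM of Hoxd1, 4.02 CPM of Hoxd3/Hoxd4, 2.99 CPM of Hoxd8 and 1.60 CPM of Hoxd10/Hoxd11.

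In Eo+ cells replicate 1 stood apart at 11 loci. It held 0.131 CPM of Hoxa9, 2.28 CPM of Hoxa13, 3.74 CPM of Hoxb4, 2.18 CPM of Hoxb5, 0.213 CPM of Hoxb7, 0.723 CPM of Hoxb8 and 0.0153 CPM of Hoxb13. It also held 0.0561 CPM of Hoxc5/Hoxc10, 1.24 CPM of Hoxd3/Hoxd4, 1.18 CPM of Hoxd8 and 0.257 CPM of Hoxd10/Hoxd11.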

How the results depend on the processing

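The edgeR test called 2 loci higher in Eo+ cells between the fractions (limma-voom 4) and 9 lower in Eo- cells than in ESCs (15 with limma-voom). Of all loci tested, edgeR called 22.6% higher in the former comparison and 31.1% lower in the latter. A minimum of 1 CPM in 4 libraries left 9 Hox loci to test, of which 4 were lower in Eo+ cells than in ESCs, 4 in Eo- cells than in ESCs and 5 in Eo+ than in Eo- cells. Without loci of several genes, 21 were tested and 9 were lower in Eo+ than in Eo- cells. In Eo- cells against ESCs, 1 locus was higher, Hoxd1, with library totals, no FPKM filter, edgeR, DESeq2, quality weights, a fit of the 2 groups only, or without loci of several genes. Leaving out 1 library at a time gave 2 to 5 loci higher and 17 to 19 lower in Eo+ cells than in ESCs, 0 to 1 higher and 10 to 16 lower in Eo- cells than in ESCs, and 2 to 4 higher and 10 to 18 lower in Eo+ than in Eo- cells. The lowest count of 2 came without ESC replicate 2 or Eo+ replicate 1 in the first, and without Eo- replicate 2, 5 or 6 or Eo+ replicate 1 in the last. With the replicate block over all 12 libraries, 5 loci were higher and 18 lower in Eo+ cells than in ESCs, 2 (Hoxd1 and Hoxd3/Hoxd4) were higher and 16 lower in Eo- cells than in ESCs, and 4 were higher and 20 lower in Eo+ than in Eo- cells. Of all loci tested, 37.3% and 37.4%, 33% and 33%, and 25.9% and 27.5% were, in the same order. No call was lost under the block. The cause of these changes was not tested, except that a stricter filter and the removal of loci test fewer loci. Of 1608 alternative values of the 26 named loci, 1447 kept their direction and side of the threshold, 73 no longer passed it and 50 newly passed it. The other 38 changed sign, none of them called in either fit (lowest adjusted p 0.464), and belonged to Hoxb1 to Hoxb6, Hoxd1 and Hoxd8.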
